A study of Mus musculus with 2 samples.

Results

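The Gimap genes encode GTPases of the immunity-associated protein family and lie side by side on mouse chromosome 6. The 8 genes Gimap1, Gimap3, Gimap4, Gimap5, Gimap6, Gimap7, Gimap8 and Gimap9 were taken by name, out of 21938 protein-coding genes in the GENCODE annotation of mm10. Their gene bodies span 123.6 kb, and with 20 kb added on each side they form 1 interval of 163.6 kb, chr6:48627234-48790851. DNase-seq, a map of the DNA that the nuclease DNase I can reach and cut, was available from 2 libraries labelled as thymus. Per the labels both came from male mice of the F1 hybrid B6CASTF1/J, a cross of the strains C57BL/6J and CAST/EiJ, at 36 days of age. They form 1 group, labelled replicate 1 and replicate 2, and no other genotype or treatment was compared. The sample descriptions number the males differently, but both libraries carry the same donor identifier, so whether they came from separate animals is not settled. With 1 group of 2 libraries there is no test, and every value is given per library.

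GIMAP proteins are small GTPases found mainly in lymphocytes, many of them anchored in internal membranes. They are known for their part in the survival and quiescence of T and B cells: loss of Gimap5 leaves rats and mice short of peripheral T cells, and loss of Gimap1 depletes mature lymphocytes. Open chromatin at a gene's start or at distal elements shows where regulatory factors can reach the DNA, and a footprint is a short stretch inside open chromatin that is protected from cutting.

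The sequences show the DNA just upstream of the genes called open and the distal open sites of the cluster, and the capitals mark the footprints called in them. For the promoters, 100 bases upstream of the annotated start and clear of annotated UTRs are given on the strand of the gene, with footprints of the library labelled replicate 2. The Gimap5 stretch lies upstream of the peaks of that gene, and the Gimap3 stretch lies mostly in the gap between its promoter peaks and holds no footprint. The Gimap1 stretch lies mostly upstream of its peak. The Gimap8 stretch begins upstream of its peak, with its first footprints outside the peak, and the Gimap9 stretch runs past the end of a peak. All are from the RefSeq copy of GRCm38.p6, the assembly of mm10.
Gimap8 promoter, chr6:48647086-48647185, plus strand: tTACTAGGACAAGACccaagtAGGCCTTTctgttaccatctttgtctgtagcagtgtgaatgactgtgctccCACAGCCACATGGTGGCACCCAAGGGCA
Gimap9 promoter, chr6:48676021-48676120, plus strand: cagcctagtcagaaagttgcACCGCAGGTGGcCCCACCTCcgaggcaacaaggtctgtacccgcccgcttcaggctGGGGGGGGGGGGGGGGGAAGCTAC
Gimap7 promoter, chr6:48718507-48718606, plus strand: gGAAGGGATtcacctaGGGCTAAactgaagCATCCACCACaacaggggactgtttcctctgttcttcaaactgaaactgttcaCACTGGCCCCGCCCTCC
Gimap1 promoter, chr6:48738947-48739046, plus strand: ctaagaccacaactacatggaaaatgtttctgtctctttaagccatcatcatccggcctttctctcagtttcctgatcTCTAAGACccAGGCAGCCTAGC
Gimap5 promoter, chr6:48746097-48746196, plus strand: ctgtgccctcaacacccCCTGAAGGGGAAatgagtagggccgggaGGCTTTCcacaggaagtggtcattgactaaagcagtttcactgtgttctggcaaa
Gimap3 promoter, chr6:48770852-48770951, minus strand: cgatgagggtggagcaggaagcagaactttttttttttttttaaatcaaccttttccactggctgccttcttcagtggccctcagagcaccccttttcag

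The distal sites are given on the plus strand. Both intergenic sites named first were peaks in both libraries and are shown for the wide footprint near their middle. The sites centred in introns were peaks of the library labelled replicate 2 alone, and the last site was a peak of the library labelled replicate 1 alone, with footprints of that library in capitals.
Site upstream of Gimap8, chr6:48645761-48645940, plus strand: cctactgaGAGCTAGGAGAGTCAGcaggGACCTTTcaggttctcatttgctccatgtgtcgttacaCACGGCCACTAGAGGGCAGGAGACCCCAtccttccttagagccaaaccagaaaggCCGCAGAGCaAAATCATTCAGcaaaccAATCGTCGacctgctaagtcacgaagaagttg
Site upstream of Gimap3, chr6:48772121-48772300, plus strand: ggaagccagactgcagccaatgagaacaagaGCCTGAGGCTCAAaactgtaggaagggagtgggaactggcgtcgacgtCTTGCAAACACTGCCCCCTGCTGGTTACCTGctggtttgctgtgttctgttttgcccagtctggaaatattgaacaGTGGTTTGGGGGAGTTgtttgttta
Site in an intron of Gm28053, chr6:48732891-48733190, plus strand: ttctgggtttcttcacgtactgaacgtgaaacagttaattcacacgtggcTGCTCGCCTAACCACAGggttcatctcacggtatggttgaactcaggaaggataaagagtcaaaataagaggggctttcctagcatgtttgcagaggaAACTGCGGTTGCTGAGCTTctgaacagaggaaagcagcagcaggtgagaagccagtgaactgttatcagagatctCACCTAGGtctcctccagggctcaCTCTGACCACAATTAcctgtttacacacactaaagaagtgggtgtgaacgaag
Site in an intron of Gimap3, chr6:48768601-48768736, plus strand: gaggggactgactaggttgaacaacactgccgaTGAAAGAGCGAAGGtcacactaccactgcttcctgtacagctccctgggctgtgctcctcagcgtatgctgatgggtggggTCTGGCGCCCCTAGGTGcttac
Far upstream site of Gimap8, chr6:48642921-48643080, plus strand: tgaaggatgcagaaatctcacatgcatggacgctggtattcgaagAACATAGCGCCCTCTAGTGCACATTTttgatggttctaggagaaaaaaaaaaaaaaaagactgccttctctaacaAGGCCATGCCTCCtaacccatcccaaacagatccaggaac

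The 2 libraries differed in which tissue's genes were open, and this bears on every comparison between them. A gene was called open when a peak overlapped the window of 1 kb either side of any of its transcript starts. Of the 18 T lineage markers examined, 4 were open in the replicate 1 library (Cd247, Lck, Cd28 and Tcf7) and 18 in the replicate 2 library, with summed promoter signals of 9.56 and 113. Cd3d, Cd3e, Cd3g, Cd8a, Cd8b1, Cd4, Rag1 and Rag2 had no promoter peak in replicate 1. Of the 15 annotated genes of a 16-gene pancreatic acinar list, 15 were open in replicate 1 and 4 in replicate 2, with summed signals of 83.9 and 12.5. Thymic epithelium markers were open at 4 and 3 of 8. Prss16, Ccl25 and Epcam were open in both libraries and Krt8 in replicate 1 alone. Foxn1, Krt5, Krt14 and Psmb11 had no promoter peak in either library. The values of replicate 1 thus go against its label of thymus, and replicate 1 and replicate 2 stand in what follows for the libraries so labelled. Whether the label of replicate 1 is right was not settled, and each of its values below is that of a library whose tissue is in doubt. The part of these differences in the results on the Gimap genes was not tested. In bulk tissue, fewer cells of a type and less open chromatin per cell cannot be told apart. The lists hold 85367 and 60644 peaks in replicate 1 and replicate 2. No file used here holds read counts, so the depth is unknown, and how the authors scaled the peak signal was not stated. Signals of both libraries, single or summed, stand side by side in the text and figures, but their sizes cannot be compared between libraries. The strength of a signal was judged only against others of its own library.

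Of the 8 Gimap genes, 1 was open in the replicate 1 library and 6 in the replicate 2 library. Over all protein-coding genes 63.1% were open in replicate 1 and 60.1% in replicate 2, so the share of open Gimap genes, 12.5%, lay below the share of all genes in replicate 1, and the share of 75.0% lay above it in replicate 2. Gimap9 was the gene open in both libraries, against 56.7% of all genes. The 5 genes Gimap8, Gimap7, Gimap1, Gimap5 and Gimap3 were open in replicate 2 alone, a class that held 3.37% of all genes. None was open in replicate 1 alone, a class of 6.41% of all genes. Gimap4 and Gimap6 were open in neither.

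**Figure D1:**
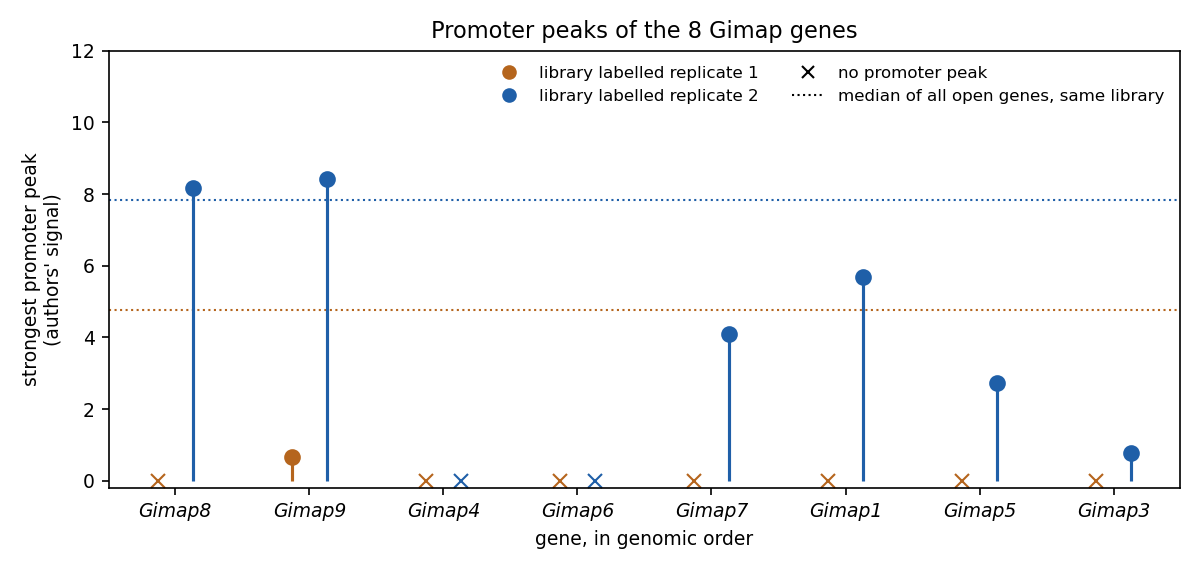
Strongest promoter peak of each Gimap gene (authors' signal, vertical axis) in genomic order. Points are the value in the library labelled replicate 1 (brown) or replicate 2 (blue), crosses mark no promoter peak, and dotted lines are the medians of all open genes of the same library, 4.75 and 7.84. Gimap9 at 8.41 and Gimap8 at 8.18 are the only genes above the dotted line of their library.

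Gimap9 (ENSMUSG00000051124.6, chr6:48676129-48679114, plus strand) had the strongest promoter peak of the cluster in replicate 2. Its strongest promoter signal was 0.659 in replicate 1 and 8.41 in replicate 2. Within replicate 1 that value sat at percentile 5.53 of the open genes, near the low end, and within replicate 2 at percentile 53.1, near the middle. The promoter windows held 2 overlapping peaks in replicate 1 and 3 peaks in replicate 2. The replicate 2 peak of 8.41 had its centre 212 bp downstream of the start, in an intron, and a peak of 4.20 lay 198 bp upstream, where 64.1% of the bases are masked as repeats. A weaker peak of 1.18 covered an exon by the gene's internal start. The lowest false discovery rate (FDR) at the promoter, as given in the authors' table of cut rates, was 6.52e-12 in replicate 1 and 5.32e-39 in replicate 2. Footprints there numbered 8 and 17.

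Gimap8 (ENSMUSG00000064262.7, chr6:48647234-48660875, plus strand) encodes the largest of these proteins, with repeated GTPase domains. In replicate 2 its promoter peak had a signal of 8.18, at percentile 51.9 of the open genes, and its centre lay 33 bp upstream of the start. The FDR there, 4.35e-64, was the lowest in the whole interval for that library. Replicate 1 had no Gimap8 promoter peak in its shorter list, but its longer list held one of 0.400, and the lowest FDR was 0.00392 over 160 bp. The promoter was listed in the FDR tables of both libraries, and it was a shorter-list peak in replicate 2 alone.

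Gimap1 (ENSMUSG00000090019.5, chr6:48739054-48743795, plus strand), needed for the maintenance of mature lymphocytes, had a promoter signal of 5.69 in replicate 2 and no promoter peak in either list of replicate 1. The centre of the peak lay 74 bp downstream of the nearest of its annotated starts, which is not the 5′ end of the gene. The FDR there was 1.23e-31, and 37.4% of open genes had a signal as low or lower. A second peak of 1.80 overlapped the window of an internal start. The antisense gene Gimap1os had 2 promoter peaks in replicate 2, the stronger of 1.80, and none in replicate 1. DNase cutting carries no strand of transcription, so peaks shared by the windows of Gimap1 and Gimap1os cannot be given to either gene.

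Gimap5 (ENSMUSG00000043505.8, chr6:48746197-48754210, plus strand), the member whose loss leads to lymphopenia, had a promoter signal of 2.72 in replicate 2, at percentile 20.4 of the open genes. The lowest FDR was 8.02e-08 in that peak, and 4.20e-10 in the promoter windows of Gimap5 outside the called peaks. A second peak of 2.10 lay 324 bp from its nearest start. Gimap7 (ENSMUSG00000043931.10, chr6:48718621-48724636, plus strand) had a promoter signal of 4.08 in replicate 2, at percentile 28.2, with an FDR of 3.18e-17. Both genes had neither a promoter peak nor any FDR interval in the promoter windows in replicate 1. The longer gene model Gm28053 (chr6:48718607-48752644), which runs through Gimap7, Gimap1 and much of Gimap5, shares the promoter peak of Gimap7 and the stronger one of Gimap1.

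Gimap3 (ENSMUSG00000039264.9, chr6:48764464-48770851, minus strand), a close relative of Gimap5, had the weakest open promoter of the cluster. Its promoter signals in replicate 2 were 0.786 and 0.763, the stronger at percentile 5.05 of the open genes, and the lowest FDR was 2.42e-05. Replicate 1 had no promoter peak there and no FDR interval.

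Gimap4 (ENSMUSG00000054435.16, chr6:48684549-48692060, plus strand), which is linked to lymphocyte apoptosis, had no promoter peak in the shorter or longer list of either library. No base of its gene body or promoter windows lay in an FDR interval in either library, and the nearest shorter-list peaks to its starts were 8.15 kb away in replicate 1 and 6.82 kb away in replicate 2. A longer-list peak of replicate 2 (chr6:48681779-48681908), with a signal of 0.817 and a footprint, lay 2705 bp upstream of its nearest start. Gimap6 (ENSMUSG00000047867.11, chr6:48701582-48708225, minus strand), which is linked to autophagy, had no shorter-list promoter peak in either library. In replicate 2 its promoter windows held longer-list peaks, the strongest of 1.23, with a lowest FDR of 0.00187, 507 bp in FDR intervals and 6 footprints. In replicate 1 those windows held none of these. With no counts, openness below the limits of the lists was not detectable at Gimap4 and is not shown to be absent.

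The order of the promoter signals in replicate 2 was Gimap9, Gimap8, Gimap1, Gimap7, Gimap5 and Gimap3, with Gimap6 and Gimap4 lacking a shorter-list peak. Each rests on 1 library, so no spread over libraries is at hand to separate neighbours such as Gimap9 and Gimap8. The RefSeq table of promoters, 250 bases before to 50 bases after a start, matched all 8 genes. The GC content ran from 43.3% at Gimap6 to 57.3% at Gimap9, against a median of 52.7% over the table, and the CpG dinucleotides from 2 at Gimap7 and Gimap3 to 8 at Gimap9, against a median of 7. Gimap9 thus had the highest GC content and the most CpG dinucleotides of the 8. Gimap5, open in replicate 2 alone, came next in GC content at 55.7%. A link between base content and being open in both libraries was not tested.

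**Figure D2:**
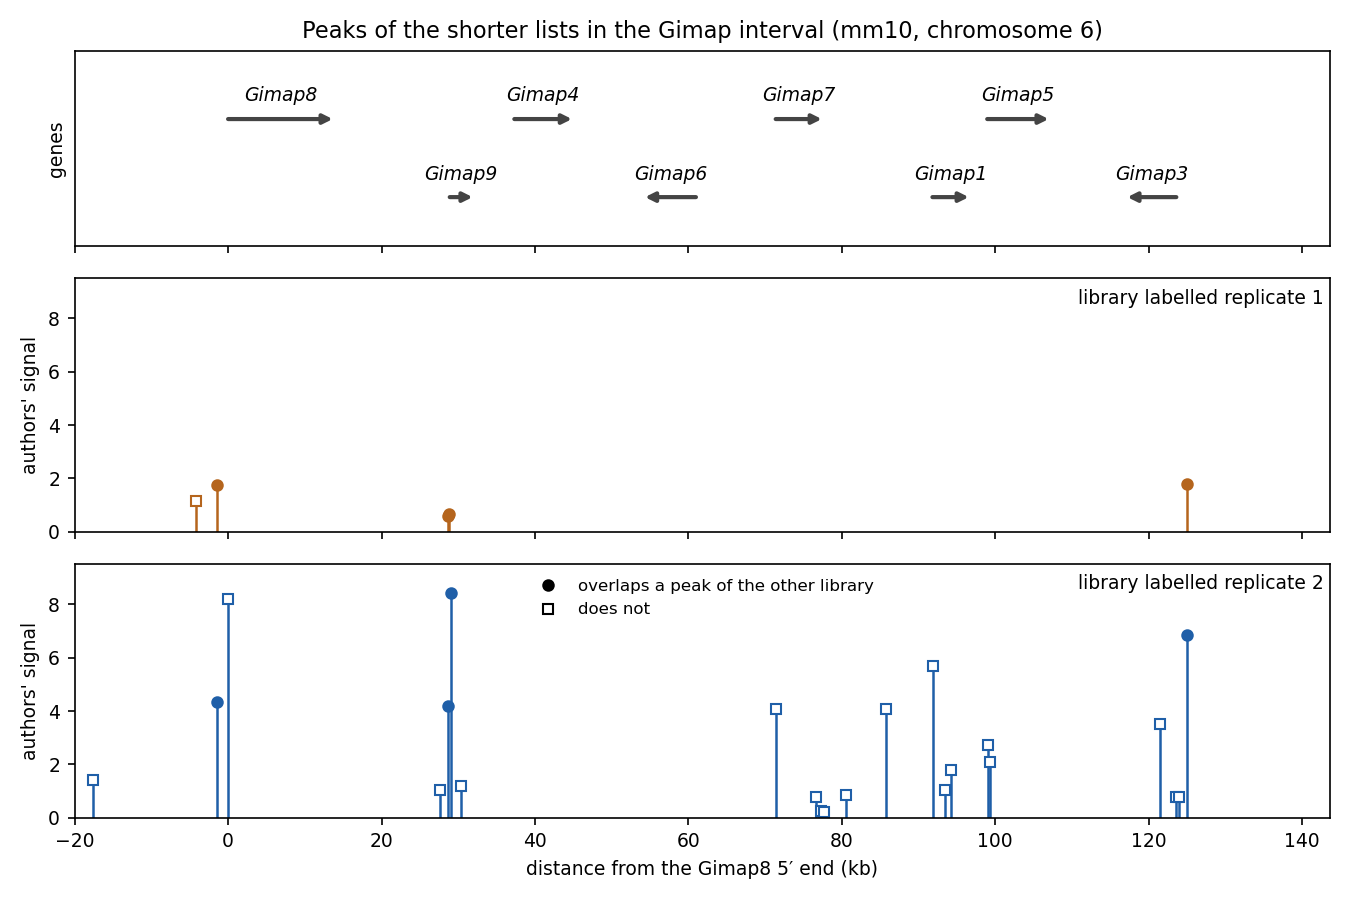
Peaks of the shorter lists along the interval, as distance in kb from the Gimap8 5′ end, with gene bodies as arrows in the direction of transcription. Each stem is 1 peak with the authors' signal as its height, and filled circles overlap a peak of the other library. Replicate 1 has 5 peaks of 1.80 or less, and replicate 2 has 22 peaks of up to 8.41 with a gap over Gimap4 and Gimap6.

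The interval held 5 peaks in replicate 1 and 22 in replicate 2. Per 100 kb that was 3.06 and 13.4 peaks, beside 2.96 and 2.07 over chromosome 6 and 3.13 and 2.23 over the genome. Of 16647 windows of the same length, 38.1% held as many peaks or more in replicate 1 and 1.81% in replicate 2, and the median window held 2.00 and 1.00. The peak density of the cluster was therefore near that of the genome in replicate 1 and above it in replicate 2. Peak signals in the interval ran from 0.580 to 1.80 with a median of 1.14 in replicate 1, and from 0.231 to 8.41 with a median of 1.95 in replicate 2. The library medians were 1.28 and 1.71, and 2 of 5 and 12 of 22 peaks lay above them. The cluster was thus dense in peaks of ordinary strength in replicate 2, whose strongest peak anywhere was 93.3.

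The peaks were not evenly spread. In replicate 1 the stretch chr6:48676401-48772120, 95.7 kb from Gimap9 to beyond Gimap3, held no shorter-list peak and 1 longer-list peak. In replicate 2 the longest such stretch was 40.8 kb, chr6:48677729-48718500, over Gimap4 and Gimap6, and it held 5 longer-list peaks. Of the replicate 2 peaks, 12 lay at promoters and 10 were distal, meaning outside every promoter window. In replicate 1 the counts were 2 and 3.

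A pair of intergenic sites just outside the gene bodies were open in both libraries. The site 1393 bp upstream of Gimap8 (chr6:48645741-48645940) had a signal of 1.74 in replicate 1 and 4.34 in replicate 2, with FDRs of 2.26e-20 and 1.11e-34. The site upstream of Gimap3 (chr6:48772121-48772300), 1360 bp from its start, had signals of 1.80 and 6.83 and FDRs of 1.94e-25 and 3.07e-48. They were the strongest peaks of the interval in replicate 1, at percentiles 62.4 and 63.8 of that library, and ranked 5 and 3 in replicate 2. The only other region with a peak in both libraries was the Gimap9 promoter, making 3 shared regions. By peaks, 4 of 5 (80%) in replicate 1 overlapped a peak of replicate 2, against 43.1% of all replicate 1 peaks. In the other direction 4 of 22 (18.2%) did, against 60.6% of all replicate 2 peaks.

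The strongest distal peak found in replicate 2 alone lay in an intron of Gm28053, 6013 bp upstream of Gimap1 (chr6:48732821-48733260). Its signal was 4.07, its lowest FDR 7.82e-24, and it held 8 footprints. Another, of 3.51 with an FDR of 4.74e-22, straddled the boundary of an intron and a UTR exon of Gimap3 (chr6:48768601-48768820), with its centre and the printed bases in the intron. The other distal peaks found in replicate 2 alone had signals of 1.40 or less, and they included the 2 weakest of the interval, 0.239 and 0.231, in the exon at the 3′ end of Gimap7 and just past it. Among all distal peaks found in replicate 2 alone, the lowest FDR, 5.33e-30, was at a peak of only 0.778 in an exon of Gimap7. Replicate 1 had 1 peak without a partner, 4.23 kb upstream of Gimap8 (chr6:48642921-48643080), with a signal of 1.14 and an FDR of 2.19e-12, and replicate 2 had neither a peak of either list nor an FDR interval there.

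A weak signal below the peak threshold in the other library was looked for at the unshared peaks. Of the 18 unshared replicate 2 peaks in the interval, 1 held any replicate 1 interval with an FDR under 0.05, the Gimap8 promoter. Over the whole library 24.2% of unshared replicate 2 peaks held one. Of all unshared replicate 1 peaks, 19.6% held a replicate 2 interval, and the 1 in the interval did not. FDR intervals covered 2684 bp or 1.64% of the interval in replicate 1, beside 1.78% of chromosome 6 and 1.87% of the genome. In replicate 2 they covered 14950 bp or 9.14%, beside 1.17% and 1.26%. At an FDR of at most 0.001 the interval's coverage was 1.09% and 4.90%, against 1.23% and 0.877% of the genome. The coverage of the cluster was thus close to that of the genome in replicate 1 and above it in replicate 2.

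**Figure D3:**
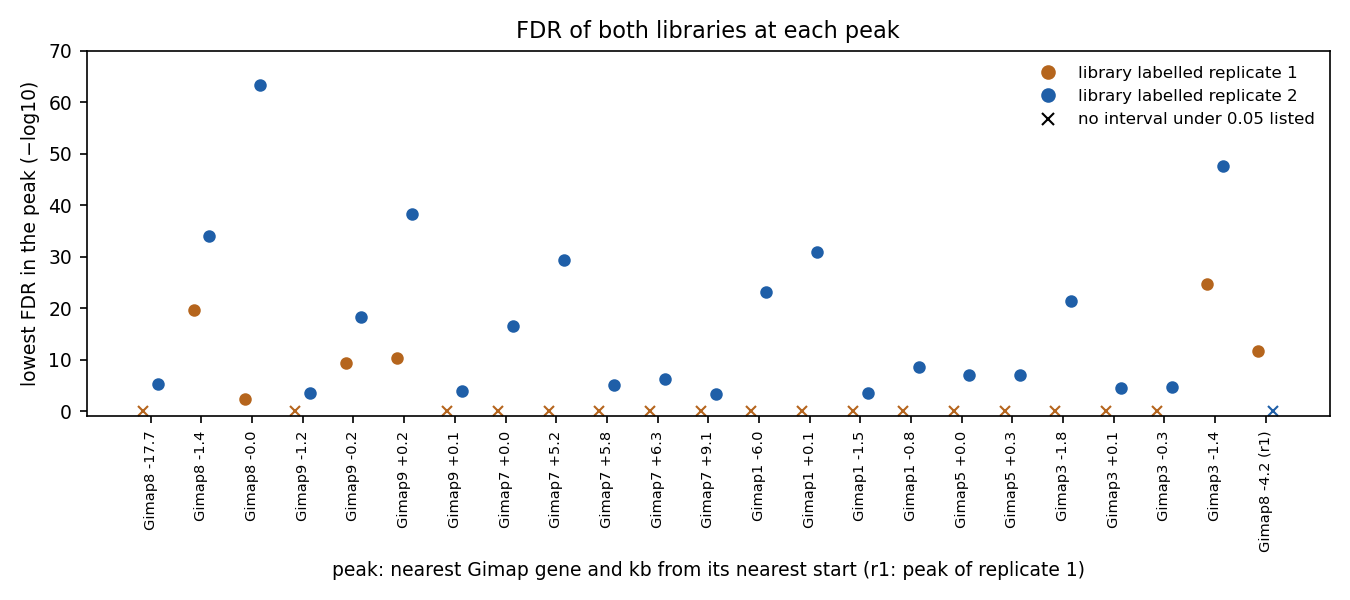
Lowest FDR within each peak, as −log10 on the vertical axis, for the 22 replicate 2 peaks in genomic order and the 1 unshared replicate 1 peak, labelled r1. Points are the library labelled replicate 1 (brown) or replicate 2 (blue), and crosses mark peaks with no listed interval under 0.05. Replicate 1 has a point at 5 of the 22 replicate 2 peaks, and the highest blue point is the Gimap8 promoter at 4.35e-64.

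Footprints numbered 15 in replicate 1 and 117 in replicate 2. Counting only the 14 and 59 wholly within shorter-list peaks, there were 11.1 and 12.5 per kb of peak. The libraries had 11.5 and 13.6, so the density within peaks was close to that of each library. The widths of all footprints in the interval had medians of 13.0 and 9 bp and reached 26 and 39 bp. Wholly within shorter-list peaks lay 93.3% and 50.4% of them, against 71.1% and 65.1% in the libraries, and 98 of the 117 in replicate 2 touched a longer-list peak. Of the replicate 1 footprints, 11 (73.3%) overlapped a replicate 2 footprint, beside 35.1% in the library. Of the replicate 2 footprints, 10 (8.55%) overlapped one of replicate 1, beside 39.4%. The overlapping footprints lay at the site upstream of Gimap8, the Gimap8 promoter, the Gimap9 promoter and the site upstream of Gimap3. The authors' footprint score was 0.01 in every row and ranks nothing.

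**Figure D4:**
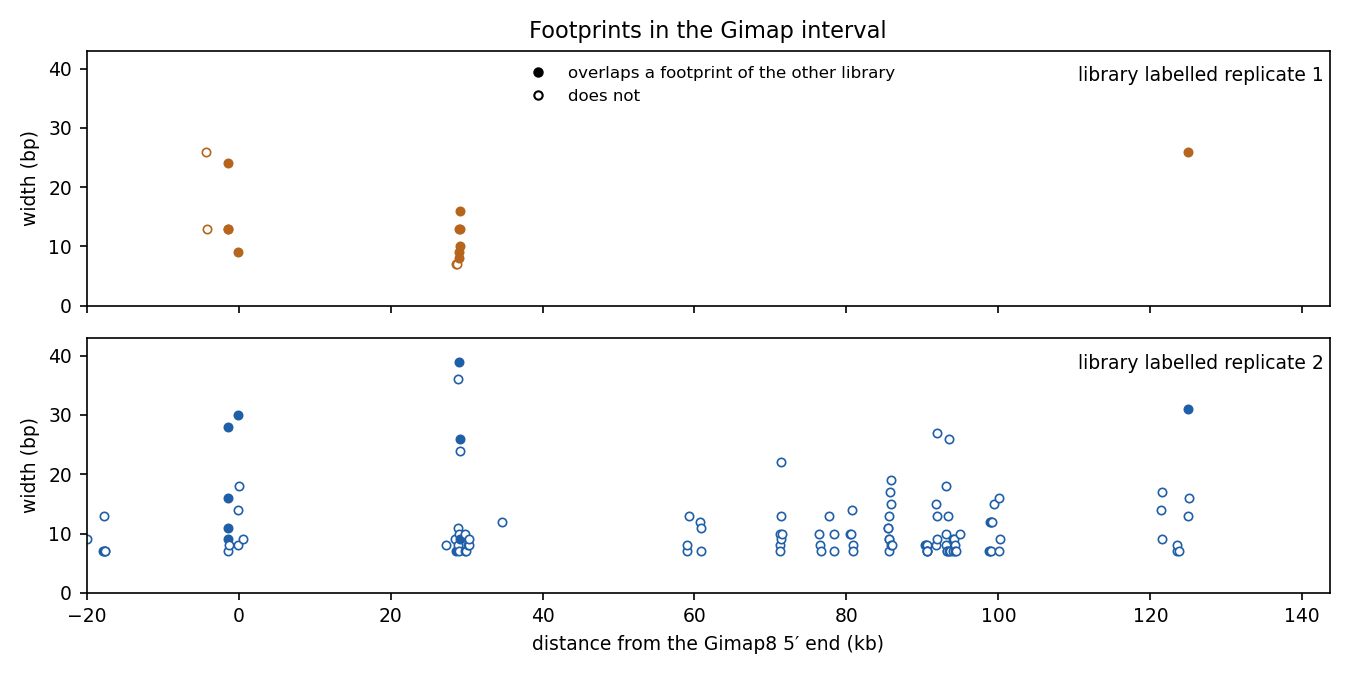
Footprints along the interval, as distance in kb from the Gimap8 5′ end, with their width in bp on the vertical axis. Filled points overlap a footprint of the other library. Replicate 1 has 15 footprints, all near Gimap8, Gimap9 and the site upstream of Gimap3, and replicate 2 has 117 spread over the interval with few between Gimap9 and Gimap7.

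Footprints at least 20 bp wide numbered 3 in replicate 1 and 10 in replicate 2, which is 20% and 8.55% of those in the interval and 16.9% and 20.6% in the libraries. The wide footprints of the sites upstream of Gimap8 and Gimap3 each hold an exact match to the 12-letter CTCF consensus, CTCF being the zinc-finger protein known for binding at domain boundaries and loop anchors. The match lies on the plus strand at the Gimap8 side (chr6:48645832-48645843) and on the minus strand at the Gimap3 side (chr6:48772212-48772223), in the footprints of both libraries. The wide footprint of the replicate 1 peak far upstream of Gimap8 and that of the Gimap8 promoter in replicate 2 hold a match with 1 mismatch, both on the minus strand. In all, 3 of 3 wide footprints in replicate 1 and 3 of 10 in replicate 2 were within 1 mismatch, against 24.2% and 24.0% of the wide footprints of the libraries, each searched with 6 bp added on either side. The consensus was searched after these wide footprints had been seen, so the counts are a description and no sign of binding. An exact match on either strand was found in the 200 bp around the centre of 6.66% and 8.33% of all peaks, and a match within 1 mismatch in 19.9% and 25.0%. Of the peaks in the interval, 2 of 5 in replicate 1 and 2 of 22 in replicate 2 held an exact match. Within 1 mismatch the counts were 3 of 5 and 4 of 22.

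Shorter motifs of 16 factors or factor families were searched on both strands in the 200 bp around the centre of each peak, in the interval and in the whole libraries. In replicate 2 the MYB motif CAACTG, which is also a form of the E-box, was in the windows of 5 of 22 peaks (22.7%), against 9.54% of the library. The windows of peaks narrower than this reach past the peak, and 3 peaks held CAACTG within their own bounds. The STAT motif TTCNNNGAA was in 3 windows (13.6% against 4.60%), and the RUNX motif TGTGGTT, of the factors that direct T cell development, in 2 (9.09% against 5.97%). A RUNX match lies in a footprint of the distal peak upstream of Gimap1, within the intronic site of Gm28053. The E protein motif CAGGTG was in 4 windows (18.2% against 22.5%), and the motif AGATAA of GATA factors, IRF GAANNGAAA and AP-1 TGANTCA were in 1 each (4.55% against 5.22%, 4.31% and 4.79%). Within the full bounds of the peaks, which can be wider than the window, 6 peaks held CAGGTG and 3 held TGTGGTT. These counts have no library share beside them. With 1 to 5 windows for each motif, no difference from the library was tested. None of the 22 windows held E protein CAGCTG, either ETS motif, ACAGGAAGT or CCGGAAGT, TCF/LEF CTTTGAT, Ikaros TTTGGGAA, KLF CCACACCC, SP GGGGCGGGG, NF-kB GGACTTTCC, CRE TGACGTCA, HNF1 GTTAATNAT, or the CTCF forms CNAGGTGGC, which can overlap CAGGTG, and CNAGGGGGC. CAGCTG and CCACACCC were present outside the window, in the second Gimap1 promoter peak. ETS ACAGGAAGT was present outside the window in the wider replicate 1 peak of the Gimap9 promoter, and in the Gimap5 stretch printed above, upstream of the peaks of that gene. The library shares of the motifs absent from the 22 windows ran from 0.122% for HNF1 to 16.4% for CAGCTG. Among the windows of the 5 replicate 1 peaks the GATA factor motif, the E protein motif CAGGTG and the MYB, STAT and AP-1 motifs were each in 1 (20% against 8.09%, 22.6%, 10.3%, 5.47% and 5.66%), the AP-1 match lying outside the peak itself.

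Because the Gimap genes arose by duplication, each peak was also compared with the rest of the interval. In replicate 2, 3 peaks had a partial copy of at least 80 bp elsewhere in the interval, and no replicate 1 peak had one. The peak by the internal start of Gimap9 matched a stretch of Gimap7 at 70.5% identity, a peak in an exon of Gimap7 matched a stretch of Gimap9 at 81.7% over 82 bp, and the second Gimap1 promoter peak matched a stretch between Gimap8 and Gimap9 at 68.3%. None of the copies lay under a shorter-list peak of the same library, but the Gimap7 stretch lay under a longer-list peak of replicate 2 with a signal of 1.05.

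**Figure D5:**
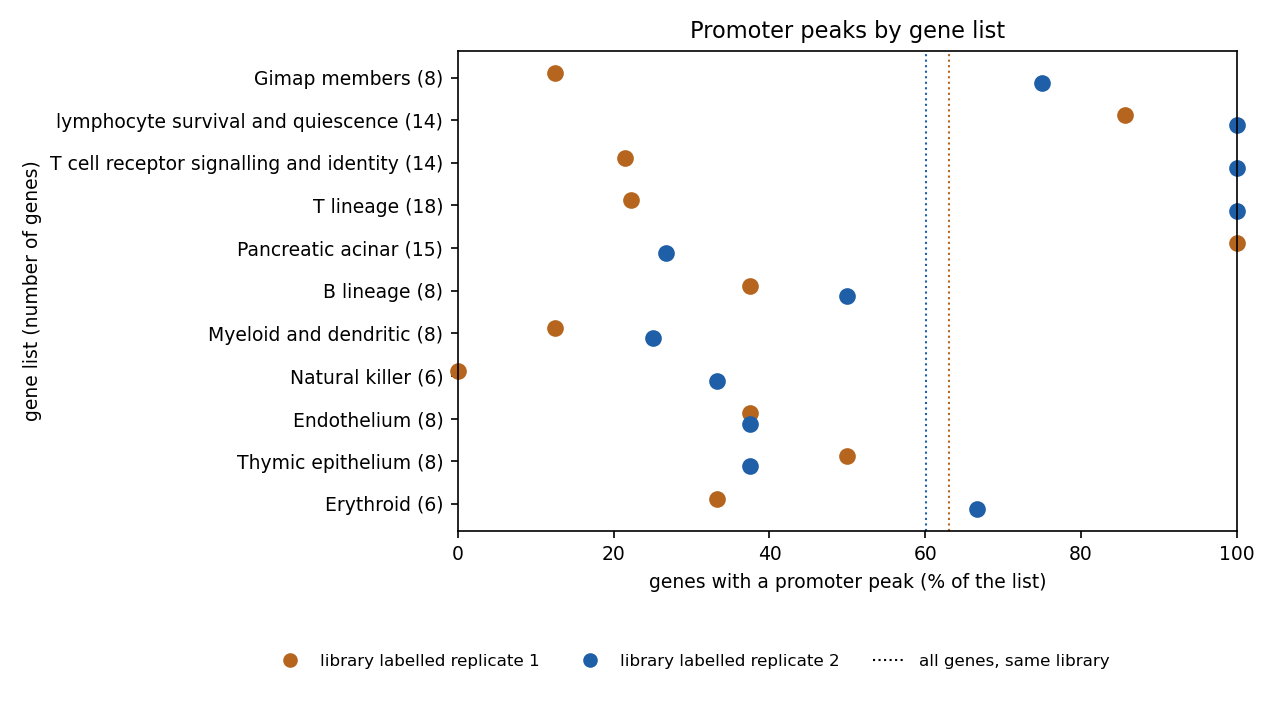
Share of each gene list with a promoter peak (horizontal axis, %), with the number of genes in brackets. Points are the library labelled replicate 1 (brown) or replicate 2 (blue), and dotted lines are all protein-coding genes, 63.1% and 60.1%. The Gimap genes are at 12.5% and 75.0%, the T lineage list at 22.2% and 100%, and the acinar list at 100% and 26.7%.

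Genes that act in the same setting were counted by the same rule. Of 14 lymphocyte survival and quiescence genes, which include the Bcl2 family and the naive T cell factors Foxo1 and Klf2, 12 were open in replicate 1 and 14 in replicate 2. The 2 open in replicate 2 alone were Il7r, the receptor for the survival cytokine IL-7, with a signal of 0.755, and the homing receptor Ccr7, with 4.82. Of 14 T cell receptor signalling and identity genes, all of them also in the T lineage list, 3 and 14 were open. The Gimap genes, with 1 and 6 of 8, had more genes open in replicate 2, as had the T cell receptor list. That direction was not particular to T cell genes. It was also that of the survival list, mostly open in both libraries, and of the B lineage, myeloid and dendritic, natural killer and erythroid lists. The acinar and thymic epithelium lists went the other way, and the endothelium list had equal counts. For lists of other cell types, counts in replicate 1 and replicate 2 were 3 and 4 of 8 for B lineage, 1 and 2 of 8 for myeloid and dendritic, 0 and 2 of 6 for natural killer, 3 and 3 of 8 for endothelium, and 2 and 4 of 6 for erythroid genes.

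The remaining annotated genes of the interval showed little. AI854703, a protein-coding gene at the end of the interval on the Gimap8 side, had a promoter signal of 0.698 in replicate 1 and no promoter peak in replicate 2, whose exonic peak of 1.40 lay outside its promoter windows. The pseudogene Gm44262 and the lincRNA genes Gm44226 and 4833403J16Rik had no promoter peak in either library.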

How the data were processed

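DNase-seq was analysed in 2 libraries labelled as thymus. Reads had been mapped to mm10, per the labels. Its sequence is that of the C57BL/6J strain, and the effect on reads of the CAST/EiJ alleles was not tested. The authors deposited 2 peak lists per library with a signal per peak, footprint lists with a score of 0.01 in every row, and tables of intervals with a p-value-like FDR, listed only under 0.05. Aligner, callers, thresholds and signal scaling: not given in the sources used here.

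Main results used the shorter peak lists. Members were taken by name from GENCODE vM21, peaks by their midpoint, promoters as 1 kb either side of any of 132629 transcript starts, and sharing as an overlap of at least 1 bp. Python 3.11.15, numpy 2.4.6, pysam 0.24.0, blastn 2.17.0 and matplotlib 3.10.9 were used, and the overlap code was tested on simulated data. The members, gene lists and the rule for named items were chosen with earlier results of these data known. The rule named all 8 members, the other genes of the interval, the 10 strongest peaks per library, shared regions and the strongest promoter peak of each member. The CTCF consensus was added after seeing the data. Alternatives were the longer lists, the stronger 50% of peaks, other windows, flanks, overlaps, footprint widths and FDR limits, and each library alone. Protein sequences were not used here.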

Additional observations from a re-analysis of the deposited data

How the results depend on the processing

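Values below are for replicate 1 and then replicate 2. With the longer peak lists the interval held 8 and 40 peaks, 5 and 17 of them distal, and 2 Gimap genes were open in replicate 1 and 2 in both libraries, Gimap8 joining Gimap9. With the stronger 50% of peaks it held 2 and 12 peaks, 4 of those in replicate 2 distal, and 0 Gimap genes were open in replicate 1 and 0 in both. With promoter windows of 2500 bp 1 and 5 peaks were distal, and 3 genes (Gimap8, Gimap9 and Gimap3) were open in replicate 1 and 3 in both libraries. With flanks of 50 kb replicate 1 had 8 peaks, 29 footprints and 4928 bp in FDR intervals, and 5 regions were shared. Footprints of replicate 2 numbered 59 wholly within peaks and 52 when at least 10 bp wide. At an FDR of at most 0.001 the covered base pairs were 1787 and 8019. Leaving out each library in turn left 1 to 6 open genes and 4 to 22 regions, since each library then counts alone: without replicate 1 the values were 6 and 22. In all, 35 of the alternative values stayed within 1.5 times the main one and 25 did not. In replicate 2 the count of open Gimap genes was 5 to 7 under every alternative tried. No paired analysis was possible because there is 1 group. No counts were available, so what depth limits could not be measured, and a gene without a peak, such as Gimap4, is not shown to be closed.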
